A study of Mus musculus with 22 samples.

Results

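The interferon regulatory factors are a family of transcription factors, and 8 of their genes, Irf1, Irf2, Irf3, Irf4, Irf5, Irf7, Irf8 and Irf9, were followed in bone marrow derived macrophages (BMDM). They were chosen by name, as the genes of the family whose RefSeq accession stood on a probe of the array, and no measured value entered the choice. They made up 8 of the 22383 genes tested and 9 of the 55681 non-control probes, with a pair of probes for Irf1 and 1 probe for each of the other 7 genes. The macrophages were grown from femur bone marrow of C57BL/6 mice, labelled male and 10 to 14 weeks old, for 9 days with M-CSF at 10 ng/ml. Mice were wild-type (wt), lacked the kinase MK2 (gene Mapkapk2; MK2-/-) or lacked both MK2 and its relative MK3 (gene Mapkapk3; MK2/3-/-). The labels name no promoter or Cre that would confine either deletion to a cell type. Cells of each genotype received medium alone or 100 ng/ml LPS, the Toll-like receptor 4 ligand of Gram-negative bacteria, for 360 min. RNA of each sample was labelled with Cy3 and hybridised to 1 Agilent one-colour array, 22 in all, with 4 wt medium, 3 wt LPS, 4 MK2-/- medium, 4 MK2-/- LPS, 3 MK2/3-/- medium and 4 MK2/3-/- LPS arrays.

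Interferon regulatory factors share an amino-terminal DNA-binding domain that recognises GAAA repeats, the core of the interferon-stimulated response element (ISRE). In macrophages, LPS sensed by Toll-like receptor 4 leads through the adaptor Ticam1 (TRIF) and the kinases Tbk1 and Ikbke to phosphorylation of the constitutively made Irf3, which drives transcription of interferon beta. Secreted interferon then acts through the receptor Ifnar and the factor ISGF3, of which Irf9 is a subunit, on a second wave of genes that includes Irf7. Irf1 and Irf2 bind the same sites, Irf1 as an activator and Irf2 mostly as its antagonist, Irf5 acts below Myd88 on cytokine genes, and Irf4 and Irf8 are lineage factors that bind DNA with partners such as Spi1 (PU.1) and the BATF proteins.

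Promoter sequences were available for all 8 members, as the 250 bases before each annotated start in RefSeq (GRCm38.p6), in 11 windows because 3 members had 2 starts. They were searched on both strands for the gamma-activated site that STAT proteins bind (GAS, TTCNNNGAA), for an ISRE core (GAAA repeated after 2 bases of any kind) and for the NF-kappaB consensus. Over 32851 windows of the same length, 7.02% held a GAS, 2.98% an ISRE core and 3.9% the NF-kappaB consensus, and in the 4 windows printed here no matches of different motifs overlapped. The 3 windows with a match are shown because these members rose after LPS, and that of Irf7 because it rose most and held none of the 3 motifs in these bases. Capitals mark the matches, and each sequence is the gene's own strand, 5′ to 3′, ending at the base before the start.
Irf1 (chr11:53769764-53770013, plus strand): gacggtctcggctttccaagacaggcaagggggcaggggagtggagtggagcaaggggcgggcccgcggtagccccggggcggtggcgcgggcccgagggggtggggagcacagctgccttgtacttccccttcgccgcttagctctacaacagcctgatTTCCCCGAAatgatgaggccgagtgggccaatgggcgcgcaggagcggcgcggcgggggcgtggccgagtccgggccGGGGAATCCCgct
Irf2 (chr8:46739495-46739744, plus strand): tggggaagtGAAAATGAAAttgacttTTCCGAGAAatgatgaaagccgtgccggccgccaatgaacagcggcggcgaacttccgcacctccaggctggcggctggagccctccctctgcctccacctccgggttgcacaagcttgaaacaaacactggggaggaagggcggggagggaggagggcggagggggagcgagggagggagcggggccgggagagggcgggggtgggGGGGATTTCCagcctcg
Irf8 (chr8:120736108-120736357, plus strand): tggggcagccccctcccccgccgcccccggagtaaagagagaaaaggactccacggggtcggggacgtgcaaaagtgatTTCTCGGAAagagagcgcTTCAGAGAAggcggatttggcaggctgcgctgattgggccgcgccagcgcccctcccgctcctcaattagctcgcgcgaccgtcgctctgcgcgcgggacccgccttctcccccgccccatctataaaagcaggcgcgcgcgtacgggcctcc
Irf7 (chr7:141266425-141266674, minus strand): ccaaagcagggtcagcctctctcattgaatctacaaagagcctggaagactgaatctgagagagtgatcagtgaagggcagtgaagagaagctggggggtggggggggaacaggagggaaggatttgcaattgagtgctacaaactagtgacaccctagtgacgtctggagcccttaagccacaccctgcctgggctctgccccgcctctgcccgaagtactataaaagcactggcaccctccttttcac
In the Irf1 window a GAS lay 90 to 82 bases and an NF-kappaB match 13 to 4 bases before the start. In the Irf2 window an ISRE core lay 241 to 232 bases, a GAS 224 to 216 bases and an NF-kappaB match 17 to 8 bases before it. The Irf8 window held 2 GAS matches, 171 to 163 and 153 to 145 bases before the start. The windows of Irf3, Irf4, Irf5 and Irf9, and the second starts of Irf1, Irf8 and Irf9, held none of the 3 motifs. These are matches of letters, and binding was not measured here.

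All values are log2 signals after quantile normalisation, and a level of one probe says nothing against the level of another. Between 61.7 and 83.0% of probes stood well above background on an array, and every probe used for a member did so on all 22 arrays. Of 8 macrophage markers, 7 had a probe and were well above background on every array. The probe of Mapkapk2 ranged from 14.3 to 15.3 in wt LPS, 11.2 to 11.9 in MK2-/- LPS and 10.9 to 11.2 in MK2/3-/- LPS arrays. That of Mapkapk3 ranged from 11.9 to 12.2, 11.9 to 12.6 and 7.65 to 8.55. In medium, Mapkapk2 ranged from 10.8 to 12.4, 8.70 to 9.01 and 8.34 to 8.50 in the same order of genotypes. Mapkapk3 ranged from 12.8 to 13.4, 12.4 to 13.2 and 10.9 to 11.4 there. Within each treatment both probes followed the labels, but signal remained in the mutants, and their Mapkapk2 signal was higher after LPS. Whether these probes lie in the deleted parts is not known here. Both replicate 3 arrays of MK2-/- mice were labelled male but read 2.08 and 2.34 over 4 Y-linked genes, against 6.86 to 8.83 on the other arrays, and 7.66 and 7.78 for Xist, against 1.99 to 5.79. Without these 2 arrays, 18 of the 19 calls made for members below were kept, and the one lost was that of Irf4 in MK2-/- cells. MK2-/- LPS replicate 3 also had 2927 spots flagged as non-uniform or as outliers, against 115 to 261 on the other arrays. Its share of probes well above background, 83.0%, was the highest. Each genotype was hybridised on slides of its own, so genotype and slide cannot be told apart in a direct comparison of genotypes, whereas medium and LPS arrays of a genotype shared a slide.

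After LPS the family moved in different directions. In wt BMDM Irf7 rose 11.4-fold, Irf1 3.71-fold, Irf8 2.91-fold, Irf2 2.45-fold and Irf9 1.43-fold, whereas Irf3 fell 2.11-fold (limma, adjusted p below the threshold of 0.05 over 22383 genes). Thus 6 of 8 members were called in wt cells, 5 higher and 1 lower, where 42.1% of all genes were called, 18.6% higher and 23.5% lower. In MK2-/- cells 7 members were called, 6 higher and 1 lower, against 44.6% of all genes, 17.5% higher and 27.1% lower. In MK2/3-/- cells 5 were called, 4 higher and 1 lower, against 48.2%, 20.2% higher and 27.9% lower. The median log2 difference of the 8 members was 1.20, 1.16 and 1.18 in wt, MK2-/- and MK2/3-/- cells, and that of all genes -0.04, -0.01 and 0.01. When arrays were scaled to their 75th percentile instead, the median of all genes moved to 0.28, 0.26 and 0.29, and the share of higher genes among those called went from 44.2, 39.2 and 42.0% to 59.6, 52.1 and 54.0%. Under that scaling the same 3 directions of Irf1, Irf7 and Irf3 stood, and the fall of Irf3 was 0.64 to 0.70 on the log2 scale.

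**Figure D1:**
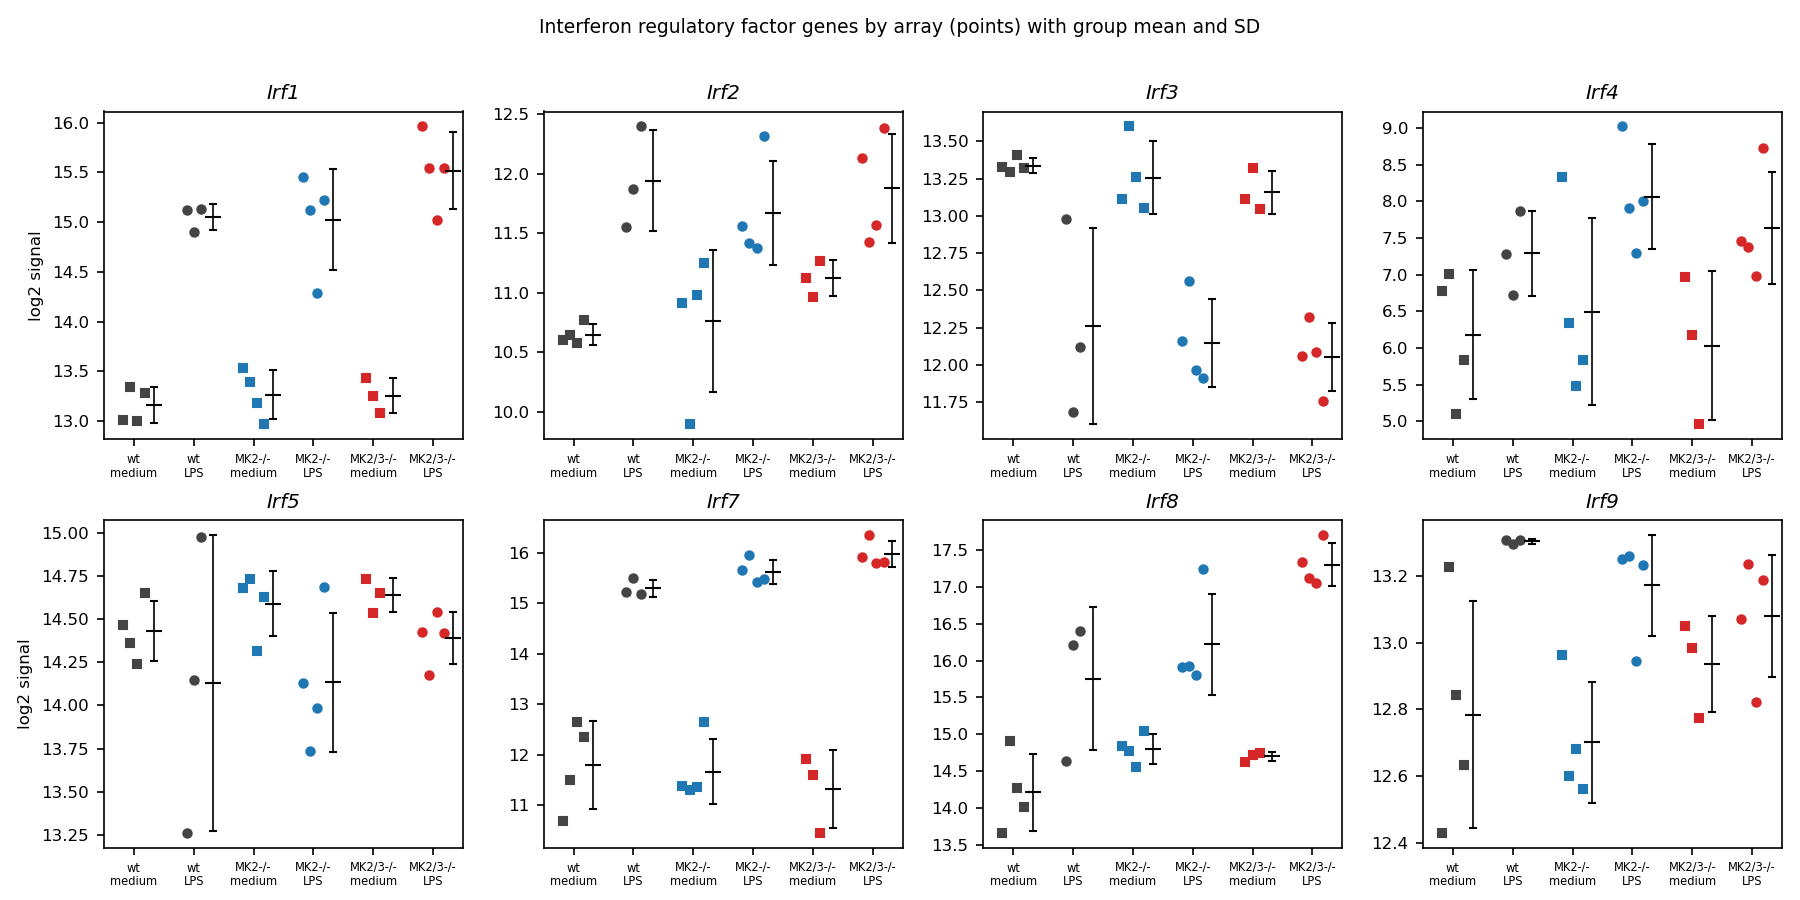
Log2 signal of the 8 interferon regulatory factor genes on each of the 22 arrays, 1 panel a gene, in wt, MK2-/- and MK2/3-/- BMDM. Squares are medium arrays, circles are LPS arrays, and bars beside them give the mean and SD of the group. The LPS arrays of Irf7 sit between 15.19 and 16.35, all above its medium arrays, and those of Irf3 between 11.68 and 12.98, all below its medium arrays.

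Irf3, the factor that is present before stimulation and is activated by phosphorylation, was the member whose transcript fell. It read 13.33, 13.30, 13.41 and 13.32 in wt medium arrays and 12.98, 11.68 and 12.12 in wt LPS arrays. The medium arrays lay close together, and the LPS arrays were lower without overlap but spread over more than 1 log2 unit. The log2 difference was -1.08 (SE 0.24, 95% interval -1.58 to -0.57, adjusted p = 0.00136). The MK2-/- arrays read 13.11, 13.60, 13.26 and 13.05 in medium and 12.16, 12.56, 11.96 and 11.91 after LPS, a difference of -1.11 (SE 0.22, adjusted p = 4.09e-04). The MK2/3-/- arrays read 13.11, 13.32 and 13.04 in medium and 12.06, 12.32, 12.08 and 11.76 after LPS, a difference of -1.1 (SE 0.24, adjusted p = 8.27e-04). The 3 genotypes thus gave falls of 2.11-, 2.16- and 2.15-fold, and the groups did not overlap in any of them.

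Irf7, the factor that amplifies type I interferon synthesis once interferon has been sensed, had the largest difference of the family in each genotype. It read 10.70, 11.50, 12.64 and 12.35 in wt medium arrays and 15.22, 15.49 and 15.19 in wt LPS arrays. The medium arrays were scattered over almost 2 log2 units while the LPS arrays were tight, and every LPS array exceeded every medium array. The log2 difference was 3.50 (SE 0.42, 95% interval 2.63 to 4.38, adjusted p = 1.82e-06). For MK2-/- cells Irf7 read 11.38, 11.30, 11.36 and 12.64 in medium and 15.66, 15.95, 15.41 and 15.47 after LPS, a 15.5-fold rise (log2 3.95, SE 0.39, adjusted p = 7.78e-08). For MK2/3-/- cells it read 11.92, 11.61 and 10.45 in medium and 15.92, 16.35, 15.79 and 15.82 after LPS, a 25.0-fold rise (log2 4.64, SE 0.42, 95% interval 3.77 to 5.52, adjusted p = 2.93e-08). The group means after LPS were ordered wt, MK2-/- and MK2/3-/- at 15.30, 15.62 and 15.97, and no neighbours in this order passed the test.

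Irf9, which gives ISGF3 its DNA contact, moved least among the members that rose. In wt cells it read 12.43, 13.23, 12.84 and 12.64 in medium and 13.31, 13.30 and 13.31 after LPS, a 1.43-fold rise (log2 0.52, SE 0.18, adjusted p = 0.0242). The LPS arrays almost coincided and lay just above the highest medium array. This call was lost without wt LPS replicate 1 (adjusted p = 0.0521) or wt medium replicate 4 (adjusted p = 0.0624), and without any of 5 single wt arrays in all. In MK2-/- cells the rise was 1.38-fold (log2 0.47, SE 0.16, adjusted p = 0.0254), and leaving out any of 6 single arrays of that genotype ended the call. In MK2/3-/- cells Irf9 read 13.05, 12.99 and 12.77 in medium and 13.07, 13.24, 12.82 and 13.19 after LPS, a difference of 0.14 (95% interval -0.23 to 0.51, adjusted p = 0.549) with overlapping groups. Scaling to the 75th percentile turned this into a call, at 0.67 (adjusted p = 0.0107), or 0.38 relative to the median of all genes.

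Irf1, the activator first found on the interferon beta promoter and induced by interferon gamma, rose in all genotypes. It read 13.01, 13.35, 13.01 and 13.28 in wt medium arrays and 15.12, 14.90 and 15.13 in wt LPS arrays. Both groups were tight and lay far apart, with a log2 difference of 1.89 (SE 0.25, 95% interval 1.38 to 2.41, adjusted p = 5.27e-06). Its MK2-/- arrays read 13.53, 13.39, 13.18 and 12.97 in medium and 15.45, 15.12, 14.29 and 15.23 after LPS, a 3.38-fold rise (log2 1.76, SE 0.23, adjusted p = 3.09e-06). Its MK2/3-/- arrays read 13.44, 13.25 and 13.08 in medium and 15.96, 15.55, 15.02 and 15.54 after LPS, a 4.79-fold rise (log2 2.26, SE 0.25, adjusted p = 3.40e-07). MK2-/- LPS replicate 3 was the lowest LPS array for this gene, and it was still above every medium array. The other Irf1 probe, from accession NM_001159393, was dim, well above background on 20 of 22 arrays, and it also rose, by 1.51, 1.56 and 1.17 (adjusted p = 4.06e-04, 9.46e-05 and 0.00274).

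Irf2, which occupies the same elements as Irf1 and mostly represses them, rose less. In wt cells it ranged from 10.58 to 10.77 in medium and from 11.55 to 12.40 after LPS, a 2.45-fold rise (log2 1.29, SE 0.31, 95% interval 0.65 to 1.94, adjusted p = 0.00228). The wt groups did not overlap. The MK2-/- difference was 0.90 (SE 0.29, adjusted p = 0.0140), between 9.89 to 11.25 in medium and 11.37 to 12.31 after LPS, and it was no longer called without MK2-/- LPS replicate 4 or MK2-/- medium replicate 2, with adjusted p up to 0.0644. The MK2/3-/- difference of 0.76 (SE 0.31, 95% interval 0.11 to 1.40, adjusted p = 0.0505) missed the threshold, although the groups of 10.97 to 11.27 and 11.43 to 12.39 did not overlap. This value passed the threshold under 13 of 38 alternative settings, among them without wt LPS replicate 1 (adjusted p = 0.0484).

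Irf5, which acts below Myd88 on inflammatory cytokine genes, was not called in any genotype. Its levels ranged from 14.24 to 14.65 in wt medium and from 13.26 to 14.98 in wt LPS arrays, so that the LPS arrays lay on both sides of the medium arrays. The log2 differences were -0.30 (95% interval -0.90 to 0.29), -0.46 (-1.01 to 0.10) and -0.25 (-0.84 to 0.35) in wt, MK2-/- and MK2/3-/- cells (adjusted p = 0.430, 0.176 and 0.513). Their sign depended on the scaling, since with the 75th percentile they were 0.47, 0.36 and 0.67, or 0.19, 0.10 and 0.38 relative to the median of all genes. In wt cells the difference also ran from -0.73 without LPS replicate 3 (adjusted p = 0.0333) to 0.13 without LPS replicate 1.

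Irf4 and Irf8 are the lineage members, Irf4 known from plasma cells, T cells and alternatively activated macrophages and Irf8 from the commitment of myeloid progenitors to monocytes and dendritic cells. Irf4 varied widely in medium, from 5.11 to 7.01 in wt, 5.48 to 8.33 in MK2-/- and 4.96 to 6.96 in MK2/3-/- arrays, and read 6.72 to 7.87, 7.30 to 9.02 and 6.98 to 8.73 after LPS. In the first 2 genotypes the medium and LPS ranges overlapped. The log2 differences were 1.11 in wt (SE 0.65, 95% interval -0.25 to 2.47, adjusted p = 0.188), 1.56 in MK2-/- (SE 0.60, adjusted p = 0.0410) and 1.60 in MK2/3-/- cells (SE 0.65, adjusted p = 0.0493). The call in MK2-/- cells was lost under 12 and that in MK2/3-/- cells under 25 of 38 alternative settings, and without the 2 arrays of low Y-linked signal the former was 1.48 (adjusted p = 0.0911). Leaving out single arrays of any group ended the MK2/3-/- call in 14 of 22 cases, with adjusted p from 0.0217 to 0.248.

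Irf8 read 13.66, 14.90, 14.28 and 14.02 in wt medium arrays and 14.64, 16.22 and 16.41 in wt LPS arrays. Replicate 1 of the wt LPS arrays lay within the range of the medium arrays, and the other two lay above all of them. The wt difference was 1.54 (SE 0.39, 95% interval 0.72 to 2.36, adjusted p = 0.00360), and 2.10 without that array. In MK2-/- cells Irf8 read 14.84, 14.77, 14.55 and 15.05 in medium and 15.91, 15.93, 15.81 and 17.25 after LPS, a 2.67-fold rise (log2 1.42, SE 0.36, adjusted p = 0.00309). In MK2/3-/- cells it read 14.63, 14.72 and 14.75 in medium and 17.33, 17.12, 17.05 and 17.70 after LPS, a 6.07-fold rise (log2 2.60, SE 0.39, 95% interval 1.78 to 3.42, adjusted p = 1.66e-05). These 4 LPS arrays stood more than 2 log2 units above every medium array of their genotype.

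**Figure D2:**
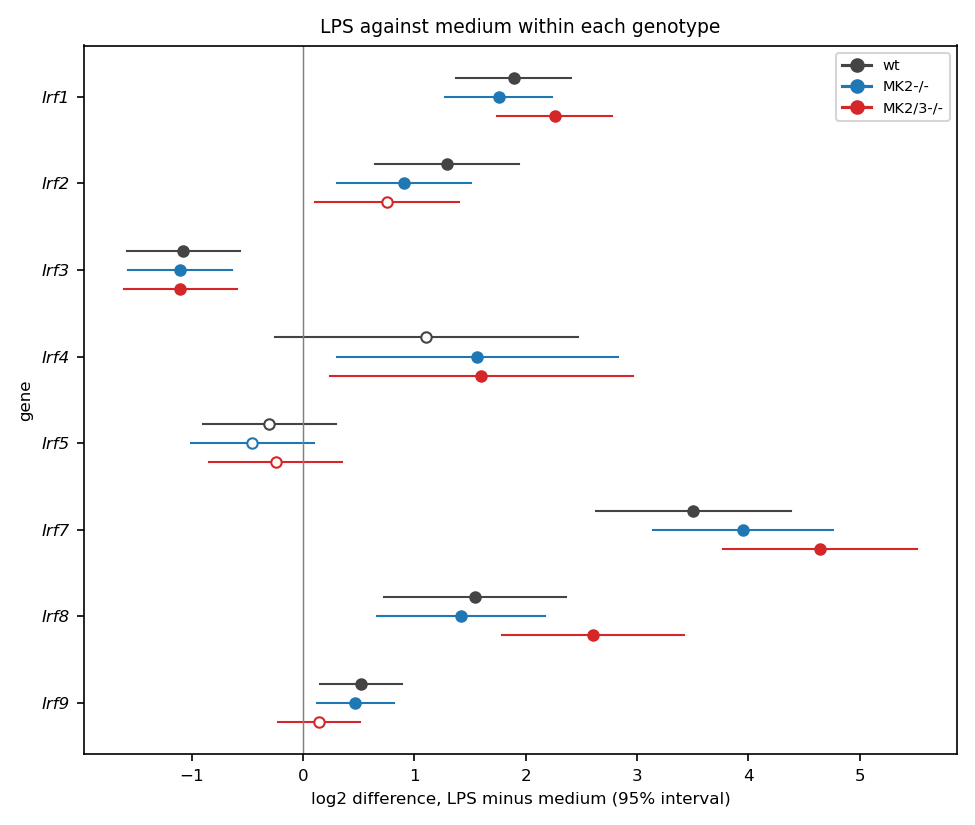
Log2 difference between LPS and medium for each of the 8 genes in wt, MK2-/- and MK2/3-/- BMDM, with 95% intervals from limma as lines and filled points where the adjusted p was below 0.05. Irf7 lies farthest to the right at 3.50, 3.95 and 4.64, Irf3 to the left of 0 at -1.08, -1.11 and -1.1, and the intervals of Irf5 span 0.

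Medium and LPS arrays did not overlap for 5 members in wt cells (Irf1, Irf2, Irf3, Irf7 and Irf9; 48.8% of all genes), for 5 in MK2-/- cells (Irf1, Irf2, Irf3, Irf7 and Irf8; 41.8%) and for 6 in MK2/3-/- cells (Irf1, Irf2, Irf3, Irf4, Irf7 and Irf8; 50.2%). The calls of Irf1, Irf3 and Irf7 were kept in all 3 genotypes under all 38 alternative settings. Those of Irf8 were kept too, with the exception of the wt call when the methods' t-test was adjusted for all genes.

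The genes around the family were read from lists of its pathway. Genes said to rise or fall in these lists are those called at an adjusted p below 0.05 by limma. Of all genes, 18.6% were called higher and 23.5% lower in wt, and 17.5 and 27.1% in MK2-/- cells. In MK2/3-/- cells 20.2 and 27.9% were. These shares stand beside the counts of all the lists. Of 14 genes between Toll-like receptor 4 and the interferon regulatory factors, 7 rose and 3 fell in wt cells (median log2 difference 0.48), 10 rose and 3 fell in MK2-/- cells (1.04), and 9 rose and 3 fell in MK2/3-/- cells (1.1). The 4 with the largest changes in wt cells were Ikbke, the kinase that phosphorylates Irf3 and Irf7 (log2 3.19, SE 0.31), the TBK1-binding scaffolds Tank (2.67, SE 0.19) and Azi2 (2.43, SE 0.21), and the adaptor Myd88 (2.40, SE 0.15). Of 13 genes of interferon receptor and STAT signalling, 9 rose and 3 fell in wt, 9 rose and 2 fell in MK2-/-, and 9 rose and 3 fell in MK2/3-/- cells, with medians of 1.83, 1.87 and 2.40. They were led in wt cells by interferon beta itself (Ifnb1, 7.77, SE 0.74), the feedback inhibitors Usp18 (6.35, SE 0.53) and Socs1 (6.05, SE 0.48) and the kinase Jak2 (3.86, SE 0.23). Ifnb1 was well above background on 2 of 4 wt, 1 of 4 MK2-/- and 1 of 3 MK2/3-/- medium arrays, so its level before LPS is poorly measured.

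Of 10 DNA-binding partners and cofactors, 5 rose and 3 fell in wt, 4 rose and 3 fell in MK2-/-, and 5 rose and 4 fell in MK2/3-/- cells (medians 0.70, 0.27 and 0.46, and 0.37 in wt with Spib, not well above background in medium, at its bound). The AP-1 factors Batf, a partner of Irf4 and Irf8, and Batf2 rose by 5.63 (SE 0.39) and 4.87 (SE 0.31) on the log2 scale in wt cells, Ets2 rose by 3.23 (SE 0.40), and the corepressor Irf2bp2, named for its binding to Irf2, fell by 2.84 (SE 0.31). Irf2bp2 fell by 2.32 (SE 0.29) in MK2-/- and by 3.96 (SE 0.31) in MK2/3-/- cells. Among target genes, all 8 tested of a list of 10 for Irf3 and ISGF3 rose in each genotype, with medians of 5.60, 6.29 and 6.13. Rsad2 (viperin), an antiviral enzyme, led them in wt cells at 6.87 (SE 0.58), followed by Ifit1 (5.83), Ifit2 (5.68) and Oasl1 (5.68). All 6 Irf1 target genes rose in each genotype (medians 4.07, 3.92 and 4.41), with Nos2, the inducible nitric oxide synthase, at 6.40 (SE 0.51) and the guanylate-binding protein Gbp2 at 6.29 (SE 0.59) in wt cells. Of 3 tested Irf5 target genes, 2 rose in wt and 3 in each mutant, with Il6 at 8.11 (SE 0.94) and Tnf at 6.40 (SE 0.47) in wt cells. Il23a, the remaining gene, was not well above background on any mutant medium array. Its rise there was at least 4.26 in MK2-/- and 2.93 in MK2/3-/- cells on the log2 scale. These genes also answer to NF-kappaB and other factors, and the part of any interferon regulatory factor in their rise was not tested. On wt medium replicate 4, Il6 read 13.36, Gbp2 13.38 and Batf 9.88. The other wt medium arrays read 6.41 to 10.02, 10.3 to 10.5 and 7.86 to 8.09 in the same order. This array made the wt rises of these genes smaller, and the reason for its levels was not tested. Over all alternative settings the wt rise of Il6 ran from 7.05 to 9.37.

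**Figure D3:**
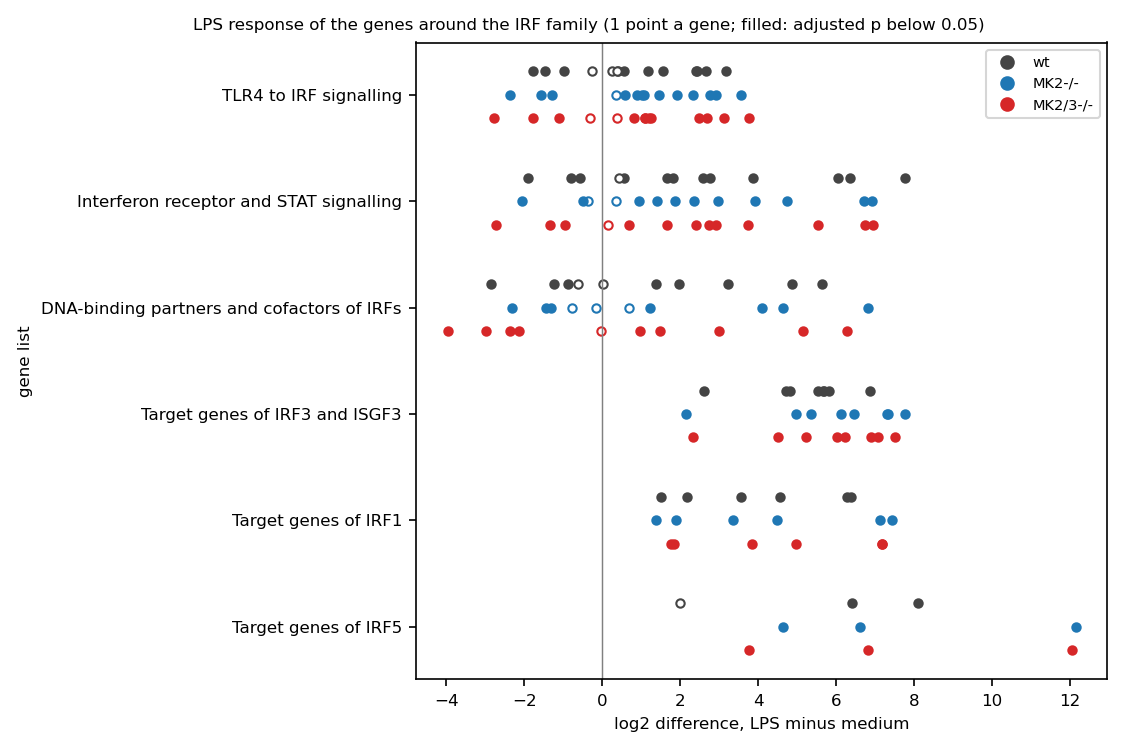
Log2 difference between LPS and medium for the genes of the 6 pathway lists, 1 point a gene in wt, MK2-/- and MK2/3-/- BMDM, filled where the adjusted p was below 0.05. The target genes lie above 0 throughout, with medians from 3.92 to 6.82, and the partner and cofactor genes lie on both sides of 0.

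Between genotypes in medium, no member was called. The differences ran from -0.13 (Irf7) to 0.59 (Irf8) for MK2-/- against wt, where 8.82% of all genes were called, from -0.47 (Irf7) to 0.49 (Irf8) for MK2/3-/- against wt (2.02%), and from -0.46 (Irf4) to 0.36 (Irf2) for MK2/3-/- against MK2-/- (2.82%). At an unadjusted p below 0.05 limma called 0 members in each of these comparisons, and 5798, 3784 and 3358 of all genes. The intervals were not narrow, since for Irf8 they were -0.17 to 1.35, -0.33 to 1.30 and -0.92 to 0.72 (adjusted p = 0.314, 0.567 and 0.948). Irf2, at 10.97 to 11.27 in MK2/3-/- and 10.58 to 10.77 in wt medium arrays, differed by 0.47 (95% interval -0.17 to 1.12, adjusted p = 0.466).

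Under LPS, 1 member was called between genotypes, Irf8 in MK2/3-/- against wt cells. It was 2.93-fold higher in MK2/3-/- than in wt cells (log2 1.55, SE 0.39, 95% interval 0.73 to 2.37, adjusted p = 0.00818), and all 4 MK2/3-/- arrays exceeded all 3 wt arrays. Among all genes 23.6% were called in that comparison, so 1 of 8 members is not above the background. The value rested in part on wt LPS replicate 1, without which it was 0.99 (adjusted p = 0.0677). It was 1.43 (adjusted p = 0.0174) with 75th percentile scaling, or 1.25 relative to the median of all genes, which that scaling moved from -0.02 to 0.17. Against MK2-/- LPS cells Irf8 was 2.11-fold higher in MK2/3-/- cells (log2 1.08, SE 0.36, 95% interval 0.32 to 1.84), which missed the threshold at an adjusted p of 0.0540, and MK2-/- replicate 4 at 17.25 lay within the MK2/3-/- range. Without that array the difference was 1.42 (adjusted p = 0.0103), without MK2-/- LPS replicate 3 it was 0.94 (adjusted p = 0.123), and without both arrays of low Y-linked signal 0.94 (adjusted p = 0.136). The MK2-/- and wt LPS groups differed by 0.47 (95% interval -0.35 to 1.29, adjusted p = 0.446), and by -0.09 without wt LPS replicate 1. The order of the Irf8 group means was thus 14.21 in wt medium, 14.70 in MK2/3-/- medium, 14.80 in MK2-/- medium, 15.75 in wt LPS, 16.22 in MK2-/- LPS and 17.30 in MK2/3-/- LPS, in which neither the 3 medium groups nor the 2 lower LPS groups differed beyond their spread.

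**Figure D4:**
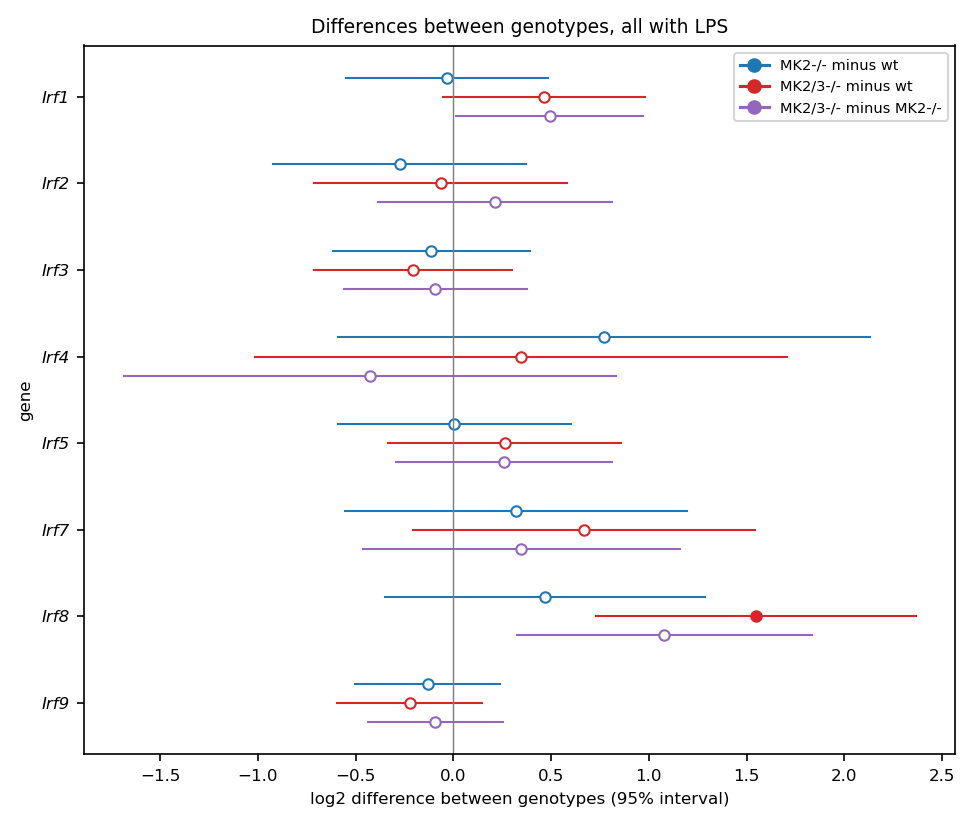
Log2 difference between genotypes under LPS for each of the 8 genes, with 95% intervals from limma as lines and filled points where the adjusted p was below 0.05. The single filled point is Irf8 for MK2/3-/- against wt at 1.55, and the interval of Irf7 in the same comparison, -0.21 to 1.54, includes 0.

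The other members differed less between genotypes under LPS. Irf7 was higher in all 4 MK2/3-/- than in all 3 wt arrays, by 0.67 (95% interval -0.21 to 1.54, adjusted p = 0.258), and the differences were 0.32 for MK2-/- against wt (95% interval -0.55 to 1.20, adjusted p = 0.645) and 0.35 for MK2/3-/- against MK2-/- (adjusted p = 0.617). Irf9 was lower in all 4 arrays of either mutant than in all 3 wt arrays, by values too small to be called, -0.13 (95% interval -0.50 to 0.24, adjusted p = 0.657) in MK2-/- and -0.22 (-0.60 to 0.15, adjusted p = 0.382) in MK2/3-/- cells. Irf1 was 0.49 higher in MK2/3-/- than in MK2-/- cells (95% interval 0.01 to 0.97, unadjusted p = 0.0444, adjusted p = 0.164). Without MK2-/- LPS replicate 3 the difference was 0.25 (limma, adjusted p = 0.473), and the dim other Irf1 probe gave -0.17 (adjusted p = 0.730). Over all members, MK2-/- against wt gave 0 calls, with values from -0.28 (Irf2) to 0.77 (Irf4), where 11.6% of all genes were called, and 0 members against 6601 genes at an unadjusted p below 0.05. MK2/3-/- against MK2-/- also gave 0 calls, where 13.5% of all genes were called, and 2 members, Irf8 and Irf1, against 6340 genes at an unadjusted p below 0.05. Groups did not overlap for 1 member in MK2-/- against wt (Irf9; 27.8% of all genes), 3 in MK2/3-/- against wt (Irf7, Irf8 and Irf9; 28.2%) and 0 in MK2/3-/- against MK2-/- cells (14.3%).

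Whether the LPS response itself differed between genotypes was tested as an interaction, in which an additive effect of the slide cancels. No member was called in any of the 3 interactions, where 0% (MK2-/- against wt), 0.679% (MK2/3-/- against wt) and 0.067% (MK2/3-/- against MK2-/-) of all genes were called by limma. The response of Irf8 was larger by 1.06 in MK2/3-/- than in wt cells (SE 0.55, 95% interval -0.09 to 2.22, adjusted p = 0.50), and by 0.50 without wt LPS replicate 1. Against MK2-/- cells it was larger by 1.18 (SE 0.53, 95% interval 0.07 to 2.30, unadjusted p = 0.0387, adjusted p = 0.547), the single member of the 8 at an unadjusted p below 0.05 in any interaction, against 1685, 2545 and 1926 of all genes. The response of Irf7 was larger by 1.14 in MK2/3-/- than in wt cells (SE 0.59, 95% interval -0.10 to 2.37, adjusted p = 0.499) and by 0.69 than in MK2-/- cells (95% interval -0.50 to 1.88, adjusted p = 0.803). Between MK2-/- and wt cells the response of Irf8 differed by -0.12 (95% interval -1.23 to 0.99, adjusted p = 0.972). The Irf8 difference between genotypes under LPS is therefore not shown to be a difference in response.

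Genes around the family also differed between genotypes under LPS. Of all genes, 11.6% were called in MK2-/- against wt, 23.6% in MK2/3-/- against wt and 13.5% in MK2/3-/- against MK2-/- cells. In the same order, 2, 1 and 0 of the 14 Toll-like receptor 4 list genes were called, and 1, 0 and 1 of the 13 interferon list genes. None of the target genes of Irf3, ISGF3 or Irf1 was called in any of the 3 comparisons, and of those of Irf5 Il23a was higher in MK2-/- than in wt cells (log2 3.10, SE 0.86, adjusted p = 0.0275). Il23a was dim in wt LPS arrays, at 3.18 to 5.61, and well above background on 2 of 3 of them. Of the Toll-like receptor 4 list, Ticam1, the adaptor upstream of Irf3, was higher in MK2-/- (0.67, SE 0.19, adjusted p = 0.0322) and MK2/3-/- cells (0.83, SE 0.19, adjusted p = 0.00505) than in wt cells, and Ly96, the LPS-binding partner of the receptor, in MK2-/- cells (1.12, SE 0.31, adjusted p = 0.0272). Of the interferon list, Ifnb1 was lower in MK2-/- than in wt cells (-2.84, SE 0.74, adjusted p = 0.0217) and the receptor chain Ifnar1 lower in MK2/3-/- than in MK2-/- cells (-0.82, SE 0.22, adjusted p = 0.0200). Each of these calls was lost with the methods' t-test adjusted for all genes and in a fit of the compared groups alone. The Ticam1 calls and that of Ifnar1 were lost with a limit of at least 2-fold, and that of Ticam1 in MK2-/- cells with 75th percentile scaling. The call of Ticam1 in MK2/3-/- cells was kept whichever array was left out. That of Ticam1 in MK2-/- cells (0.51 to 0.81 over all alternative settings) was lost without wt LPS replicate 1 or 2 or MK2-/- LPS replicate 1 or 2, and that of Ly96 (0.90 to 1.38) without any wt LPS array or MK2-/- LPS replicate 1 or 2. The call of Ifnb1 (-3.32 to -2.15) was lost without wt LPS replicate 3 or MK2-/- LPS replicate 2, that of Il23a (1.66 to 3.74) without wt LPS replicate 2, MK2-/- LPS replicate 1 or 2 or the arrays of low Y-linked signal, and that of Ifnar1 (-1.01 to -0.62) without MK2-/- LPS replicate 1 or 2 or MK2/3-/- LPS replicate 3. The wt, MK2-/- and MK2/3-/- LPS arrays spanned 10.8 to 12.9, 7.41 to 9.68 and 8.45 to 10.7 for Ifnb1, while Irf7 spanned 15.19 to 15.49, 15.41 to 15.95 and 15.79 to 16.35 on the same arrays.

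Among partners and cofactors, Batf3, which works with Irf8 in dendritic cells, was higher in MK2/3-/- LPS cells than in wt (1.43, SE 0.32, adjusted p = 0.00362) and MK2-/- LPS cells (0.95, SE 0.29, adjusted p = 0.0381). Its levels were 7.10 to 7.62 in wt, 7.46 to 8.16 in MK2-/- and 7.79 to 9.25 in MK2/3-/- LPS arrays. Irf2bpl, a relative of the Irf2-binding corepressors, was lower in MK2/3-/- LPS cells by -3.00 against wt (SE 0.45, adjusted p = 2.08e-04) and -1.86 against MK2-/- cells (SE 0.41, adjusted p = 0.00568). Irf2bp1 differed in the same direction, by -1.42 (SE 0.26, adjusted p = 0.00108) and -0.92 (SE 0.24, adjusted p = 0.0176), and Irf2bp2 by -1.33 against MK2-/- cells (SE 0.29, adjusted p = 0.00482). Against MK2-/- cells the call of Batf3 (0.78 to 1.26 over all alternative settings) was lost without MK2-/- LPS replicate 1, 3 or 4 or MK2/3-/- LPS replicate 1, 2 or 4, and that of Irf2bp1 (-1.11 to -0.67) without MK2-/- LPS replicate 1 or 2 or MK2/3-/- LPS replicate 4. The calls against wt cells were kept whichever array was left out. All these calls were lost with the methods' t-test adjusted for all genes. A fit of the compared groups alone lost every call against MK2-/- cells and that of Batf3 against wt cells. With 75th percentile scaling or a limit of at least 2-fold, the calls of Batf3 and Irf2bp1 against MK2-/- cells were lost. Of the 10 genes of this list, 1 was higher and 2 lower in MK2/3-/- than in wt cells, and 1 higher and 3 lower than in MK2-/- cells. Of all genes 23.6 and 13.5% were called in these comparisons. The medians of the list were -0.36 and -0.42 beside -0.02 and -0.06 over all genes.

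Irf8 is known to be high in dendritic cells, and 5 of their markers were read beside it. Their mean level was 9.08 to 9.57 in MK2/3-/- LPS arrays, above wt medium (7.23 to 7.93), wt LPS (7.64 to 8.13), MK2-/- medium (7.0 to 7.66), MK2-/- LPS (7.23 to 8.05) and MK2/3-/- medium arrays (7.26 to 7.63). This mean includes Xcr1, not well above background in any other group, and Clec9a, dim in wt and MK2-/- LPS arrays. Siglech and Zbtb46 were not called between genotypes under LPS, so the mean does not stand for each marker. After LPS, when Irf8 rose in each genotype, 1 marker was higher and 1 lower in wt cells, and 1 higher and 2 lower in MK2-/- cells. In MK2/3-/- cells Clec9a and Zbtb46 were higher and Siglech lower, and Xcr1 is left out of these calls. Of all genes, 18.6% were higher and 23.5% lower in wt, 17.5 and 27.1% in MK2-/-, and 20.2 and 27.9% in MK2/3-/- cells. The medians over all 5 markers were -0.73, 0.16 and 2.31, the last being the same with Xcr1 at its bound. Xcr1, a chemokine receptor of cross-presenting dendritic cells, was well above background on the 4 MK2/3-/- LPS arrays alone, at 5.06 to 6.25. It thus passed the filter only through the group in which it was high, and is described without a test, as at least 4.12-fold higher than in wt LPS and at least 4.71-fold higher than in MK2-/- LPS cells. For such a bound, each array of the dimmer group was given its lowest well-above-background signal, or the probe's own signal where that was higher. With normexp background correction and its offset of 50, the fitted log2 differences of Xcr1 were 0.70 and 0.66, so the bounds hold only for the signals without that correction.

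Of the other 4 markers, 1 was called higher in MK2/3-/- LPS than in wt LPS cells and 2 were called higher than in MK2-/- LPS cells. Of all genes 23.6 and 13.5% were called in these comparisons. Clec9a, a receptor of the same dendritic cells, was at 6.81 to 7.08 in MK2/3-/-, 3.09 to 5.08 in wt and 2.03 to 5.06 in MK2-/- LPS arrays, and well above background on 1 of 3 wt and 2 of 4 MK2-/- LPS arrays. It was called higher in both comparisons (adjusted p = 0.00131 and 0.00121), with fitted differences of 2.98 against wt and 2.90 against MK2-/- cells that became 1.14 and 1.11 with normexp. The growth factor receptor Flt3 was higher by 1.60 against MK2-/- (SE 0.38, adjusted p = 0.00846) and 0.70 against wt cells (adjusted p = 0.224), but another of its probes gave -1.15 and -0.44. The transcription factor Zbtb46 was not called, at 0.64 against MK2-/- (adjusted p = 0.207) and 0.71 against wt cells (adjusted p = 0.153). Siglech, the brightest of the 5, had means of 15.80, 15.77 and 15.97 in wt, MK2-/- and MK2/3-/- LPS arrays (0.17 against wt, adjusted p = 0.697, and 0.20 against MK2-/- cells, adjusted p = 0.676). Unlike Irf8 it fell after LPS, by 0.73, 0.67 and 0.74 on the log2 scale (adjusted p = 0.0373, 0.0374 and 0.0322).

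Markers of other cell types were called higher in MK2/3-/- than in MK2-/- LPS cells as well. Of 4 T and NK cell markers this was Cd8a, by 2.43 against MK2-/- cells (SE 0.75, adjusted p = 0.0372). Of 4 measured neutrophil and granulocyte precursor markers Elane was higher by 0.84 against MK2-/- cells (SE 0.25, adjusted p = 0.0343). Of 4 B cell markers 1 was called higher against MK2-/- and 1 against wt cells, where 13.5 and 23.6% of all genes were called. Cd8a stood well above background on 1 of 4 MK2-/- LPS arrays. In bulk samples more cells of a type and more RNA per cell cannot be told apart, and the part of any of these cells in the Irf8 result was not tested.

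**Figure D5:**
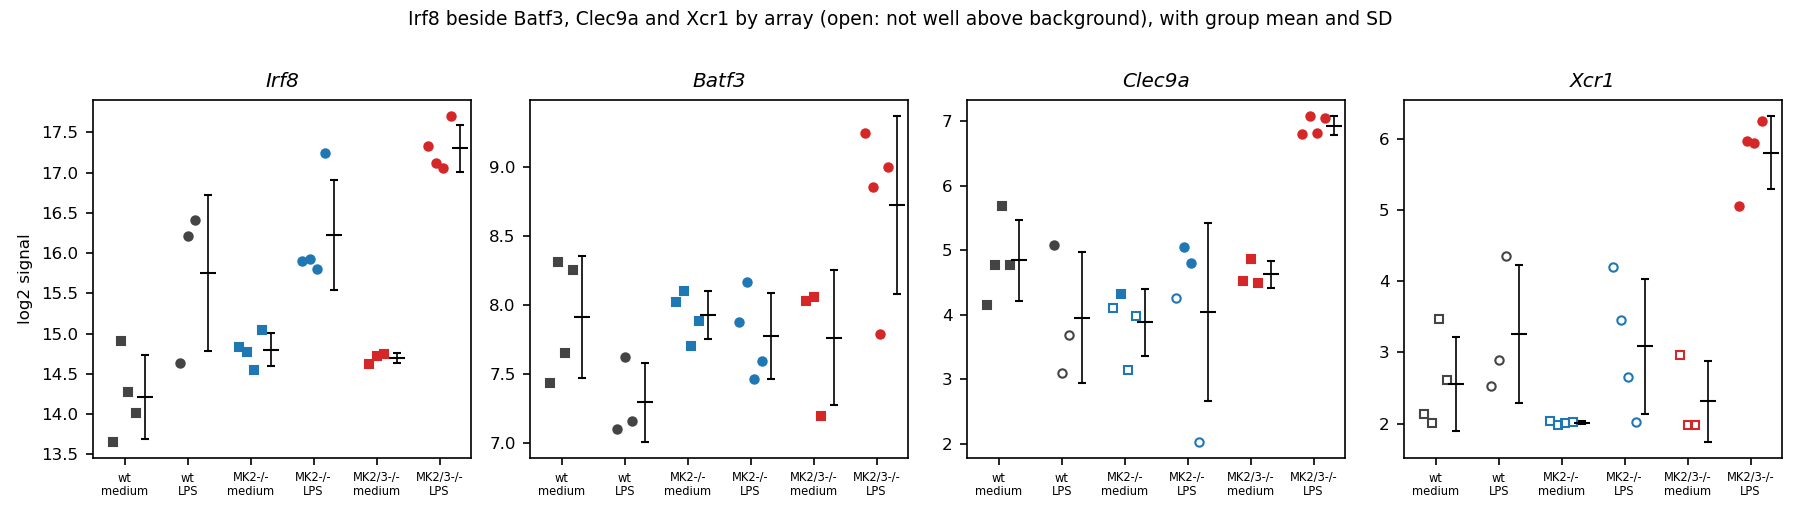
Log2 signal of Irf8, Batf3 and the dendritic cell markers Clec9a and Xcr1 on each of the 22 arrays, squares for medium and circles for LPS, with bars for group mean and SD and open points for signals that did not stand well above background. In the MK2/3-/- LPS arrays Irf8 sits between 17.05 and 17.70, Clec9a between 6.81 and 7.08 and Xcr1 between 5.06 and 6.25, and the Xcr1 points of all other groups are open. Xcr1 passed the filter only through the MK2/3-/- LPS arrays. The other dendritic cell markers read are not drawn. Of these, Siglech and Zbtb46 were not called between genotypes under LPS, and the probes of Flt3 differed in direction.

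The genes whose levels ran most like those of a member over the 22 arrays are given as a description, since these arrays share 6 groups and most of the likeness is that of the groups. Irf1 ran with Irgm1 (Pearson r 0.98), Parp8 (0.979) and Lnpep (0.978), and Irf7 with Fpr2 (0.982), Slfn1 (0.98) and Nampt (0.979). Irf2 ran with Aim2 (0.941), Gosr1 (0.933) and Ube2d3 (0.929), Irf3 with Mlst8 (0.954), Mbd3 (0.954) and Chpf2 (0.95), and Irf9 with Rbm43 (0.874), Pik3cd (0.868) and Susd6 (0.854). Irf8 ran with Socs7 (0.98), 9330133O14Rik (0.958) and Pou3f1 (0.958). When the group means were removed, Irf8 still ran with Socs7 (0.945), followed by Smagp (0.921) and Wwp1 (0.877), which is likeness between replicates of a group. The lowest of the leading values were those of Irf5 with Card19 (0.848) and Irf4 with Grk3 (0.835). Between members, Irf1 and Irf7 had an r of 0.934, Irf3 and Irf8 one of -0.888, and Irf5 and Irf8 one of -0.007.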

How the data were processed

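Total RNA of 22 BMDM samples was labelled with Cy3 and hybridised to Agilent one-colour arrays of 62976 spots. The authors extracted spot intensities with Agilent Feature Extraction 11.0.1.1 per the file headers, and the deposited processed signal is a background-subtracted intensity. The deposited series table holds log2 values that the authors had quantile normalised and set relative to each probe's median over all samples. It was used as an alternative, and its columns, with medians from -0.07 to 0.08, correlated with the values computed here, centred by probe, at r = 0.993 to 0.999, so scale and direction were settled.

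From the processed intensities, control spots (3671 an array) and spots with a non-uniformity or population-outlier flag were left out, no spot was saturated, values were quantile normalised on the log2 scale, and spots of a probe were averaged. Of the 29150 probes with a RefSeq accession, 27509 were named through a RefSeq gene table (GRCm38.p6), and another 3735 probes had a GenBank accession. A probe had to stand well above background on 3 or more arrays (28103 did), and the brightest probe stood for a gene, which left 22383 genes. All 8 members passed this filter. limma 3.58.1 (R 4.3.3) was fitted to 6 group means over all 22 arrays, with Benjamini-Hochberg adjustment over 22383 genes in each of 12 comparisons and a threshold of 0.05. Standard errors and 95% intervals are those of this fit. Precision is limited by the 3 or 4 arrays of a group. The methods describe independent experiments, but the labels do not tie replicates to separate animals, so p-values measure the spread between these samples. The script that runs the fit was tested on simulated data.

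The members and the gene lists were chosen with earlier results of these data known. Named are all members, and from a list those called with the largest changes in the comparison told of, at most 4, plus the dendritic cell markers and the targeted genes. Mx1, Mx2, Il12b, Cd68 and Ly6g were not analysed here. Alternatives were the background correction, scaling, filter, choice of probe, spot flags, array weights, replicate blocks, the groups fitted, a fold limit, the methods' t-test, and leaving out arrays. Promoters were read with Python 3.11.15.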

Additional observations from a re-analysis of the deposited data

Results flagged for a closer look

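In 36 combinations of a group of 4 arrays with a probe of the 8 members, the dim second probe of Irf1 included, the gap between the highest or lowest array and its neighbour was set against the range of the group, and 3 exceeded Dixon's 95% critical ratio, where chance passes about 1 in 20. Irf7 on MK2-/- medium replicate 4 read 12.64 against 11.38 on the nearest array (ratio 0.936). Irf8 on MK2-/- LPS replicate 4 read 17.25 against 15.93 (ratio 0.918). Irf9 on MK2-/- LPS replicate 3, 1 of the arrays with low Y-linked signal, read 12.95 against 13.23 (ratio 0.916).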

How the results depend on the processing

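Over 16 other settings the members' results gave 649 values, of which 603 kept direction and side of the threshold, and over 22 fits that each left out 1 array 872 of 924 did. None of the values that changed sign belonged to a call. For MK2/3-/- against MK2-/- under LPS, 1 member (Irf8) was called with normexp background correction, with the authors' table, with probes above background on all arrays, with the unadjusted methods' t-test and with array weights, and 0 to 1 when 1 array was left out. For MK2/3-/- against wt under LPS, the count was 2 with the unadjusted t-test, 0 with the adjusted one, 0 in a fit of the compared groups alone, and 0 to 1 with 1 array left out. In medium, MK2/3-/- against wt gave 1 (Irf2) with the unadjusted t-test. The LPS response in MK2-/- cells gave 4 to 7 with 1 array left out, with 4 reached without MK2-/- LPS replicate 4 or MK2-/- medium replicate 2. Irf5 after LPS changed sign with 75th percentile scaling (0.47, 0.36 and 0.67 in wt, MK2-/- and MK2/3-/- cells), in wt cells with array weights (0.024), and with 1 array left out (-0.73 to 0.13 in wt). With 1 array left out, Irf8 in MK2-/- against wt under LPS ran from -0.090 to 0.79 and its interaction from -0.68 to 0.21. Taking the most induced probe turned Flt3 to -1.15 and -0.44 for MK2/3-/- against MK2-/- and wt. The cause was not tested.

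Same-letter replicates correlated above 0.1 in 7 of 10 pairs, against 5 of 30 pairs of other letters, and the mice had the same age in 10 of 10 same-letter pairs, against 5 of 30. Same-number replicates correlated above 0.1 in 7 of 10 pairs. Both arrays of low Y-linked signal, MK2-/- medium and LPS, shared the letter c and the number 3, and their correlation was -0.086. As the labels do not say what the letter or number marks and not every pair passed 0.1, a pairing was not established. With the letter as a replicate block the LPS responses gave 6, 7 and 6 members in wt, MK2-/- and MK2/3-/- cells, and with the number as a replicate block 5, 7 and 4.

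Counts over all genes moved more. The LPS responses called 9423, 9988 and 10779 genes in wt, MK2-/- and MK2/3-/- cells, between 6241, 6721 and 7420 with a limit of at least 2-fold and 16344, 16759 and 18852 probes when all probes were tested. Under LPS the counts were 2595 for MK2-/- against wt (546 by the adjusted and 5911 by the unadjusted methods' t-test), 5281 for MK2/3-/- against wt (62 by the adjusted t-test, 9320 over all probes) and 3030 for MK2/3-/- against MK2-/- (719 and 6996). In medium they were 1974 (776 to 5637), 452 (157 to 4970) and 632 (229 to 3470), and in the interactions 0 (0 to 59), 152 (14 to 985) and 15 (0 to 77). Leaving out 1 array gave 1314 to 3183, 3500 to 5663 and 1802 to 3279 under LPS, 779 to 2386, 20 to 745 and 294 to 752 in medium, and 0 to 4, 9 to 564 and 1 to 41 in the interactions.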
